A study of Mus musculus with 4 samples.

Results

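The genes described here are 8 genes of the type 2 helper T cell program in mouse. They are the cytokine genes Il4, Il5 and Il13, their chromosomal neighbours Rad50 and Kif3a, the transcription factor gene Gata3, the receptor gene Il1rl1 and the secreted matrix protein gene Ecm1. They were picked by name, each symbol was found in both deposited gene tables, and they are 8 of 22120 genes with a symbol in both. RNA came from regulatory T cells induced in culture (iTreg cells) from sorted naive T cells of C57BL/6 mice. The MSC KO group, 2 libraries, came from mice lacking musculin, a basic helix-loop-helix repressor encoded by Msc, and the WT group, 2 libraries, from wild-type mice. Cells of both groups were harvested on day 3 of stimulation through CD3 and CD28 by immobilized antibodies (1 µg/ml) in the presence of TGF-beta (2 ng/ml). The deleted part of Msc and the source of the replicates (separate cultures or not) are not stated in the labels, so p-values measure only the spread between these samples.

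In type 2 helper cells, GATA3 opens and activates a cluster of cytokine genes on mouse chromosome 11 in which Kif3a, Il4, Il13, Rad50 and Il5 follow each other. The end of Rad50 holds a locus control region that acts on the flanking cytokine genes, while Rad50 and Kif3a themselves are used by most cells. IL-4 drives further type 2 differentiation through STAT6, IL-5 acts on eosinophils, and IL-13 acts on epithelium and macrophages. In induced Treg cells, TGF-beta and Foxp3 normally hold this program down.

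Expression is given as FPKM, a fragment count adjusted for transcript length and library size. Depth is not stated in the tables, and an estimate from the spacing of low values put it between 25500000 and 35000000 fragments per library. Msc was under 1 FPKM in every library, but its direction went against the labels. It had 0.332 and 0.939 FPKM in the libraries labelled MSC KO, and 0.0243 and 0.0178 FPKM in those labelled WT. By estimate these levels rest on about 16.2 and 53.6 fragments in MSC KO and 1.1 in each WT library. The groups below are therefore those of the labels alone. Foxp3, which defines Treg cells, was at 2.97 and 7.05 FPKM in MSC KO and 62.8 and 66.0 FPKM in WT. The WT libraries were much more alike than the MSC KO libraries. Over 5980 genes with a mean of at least 10 FPKM, small RNA genes left out, the median absolute difference on the log2(FPKM + 1) scale was 0.152 between MSC KO 1 and MSC KO 2 and 0.0541 between WT 1 and WT 2. Differences were fitted with limma on log2(FPKM + 1) over 10587 genes of at least 1 FPKM on average, with the table (MSC KO 1 with WT 1, MSC KO 2 with WT 2) as a block. Of these genes, 0.00945% passed an adjusted p of 0.05 (1 gene, none of the 8), while 20.4% (2158 genes) had an unadjusted p under 0.05. Differences below are MSC KO minus WT on that log2 scale, with the standard error of the limma fit. The scale understates the fold of genes at low FPKM.

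The windows before the start sites of the 3 cytokine genes and of Il1rl1 are shown because the cytokine genes were higher in MSC KO together and Il1rl1 differed little. Each is the 250 bases before a RefSeq start site in GRCm38.p6, 5′ to 3′. Where RefSeq lists several starts, the one farthest upstream is printed. Capitals mark the GATA motif, searched on both strands as the letters GATA with A or T before them and A or G after them, and the STAT6 motif TTCNNNNGAA, which reads the same on both strands.
Il4 (chr11:53618666-53618915, minus strand): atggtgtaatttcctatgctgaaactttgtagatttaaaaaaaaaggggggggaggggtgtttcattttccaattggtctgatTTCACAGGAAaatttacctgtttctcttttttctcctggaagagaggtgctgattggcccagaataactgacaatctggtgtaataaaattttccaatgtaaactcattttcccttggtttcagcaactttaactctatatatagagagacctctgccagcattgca
Il13 (chr11:53634703-53634952, minus strand): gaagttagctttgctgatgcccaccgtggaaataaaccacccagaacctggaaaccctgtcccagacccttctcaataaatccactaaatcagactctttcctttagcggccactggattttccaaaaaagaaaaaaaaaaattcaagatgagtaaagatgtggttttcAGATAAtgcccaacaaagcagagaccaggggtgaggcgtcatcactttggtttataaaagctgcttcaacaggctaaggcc
Il5 (chr11:53720544-53720793, plus strand): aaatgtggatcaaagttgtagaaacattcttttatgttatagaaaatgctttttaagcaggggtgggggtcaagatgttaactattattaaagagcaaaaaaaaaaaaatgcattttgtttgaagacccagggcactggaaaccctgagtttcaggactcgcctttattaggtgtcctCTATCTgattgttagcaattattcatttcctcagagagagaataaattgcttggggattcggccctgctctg
Il1rl1 (chr1:40429320-40429569, plus strand): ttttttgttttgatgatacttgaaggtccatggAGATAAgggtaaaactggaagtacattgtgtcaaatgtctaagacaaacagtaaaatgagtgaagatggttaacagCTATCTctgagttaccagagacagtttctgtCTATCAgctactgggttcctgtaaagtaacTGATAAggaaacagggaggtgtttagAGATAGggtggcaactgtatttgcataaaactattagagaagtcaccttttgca
The GATA motif stood once in the window of Il13 (AGATAA) and once in that of Il5 (CTATCT, the reverse strand). The window of the upstream Il4 start held no GATA motif and 1 STAT6 motif, TTCACAGGAA, and the window of the other listed Il4 start held 1 GATA motif. The window of the upstream Il1rl1 start held 5 GATA motifs, and the window of the other listed Il1rl1 start held 1. The Ecm1 window held 1, and the windows of Gata3 and Kif3a none. Of 32851 such windows of mouse genes, 26.5% held a GATA motif, 0.0426% held 5 or more, and 5.85% held the STAT6 motif. The E-box CAGCTG, a form of the CANNTG motif of basic helix-loop-helix factors, was in 13.0% of all windows and in none of the 9 windows of the 7 members listed. These matches describe letters only and show no binding.

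All 3 cytokine genes were higher in both MSC KO libraries than in either WT library, as were 26.6% of all tested genes. In both tables Il13 and Il4 had the largest differences of the 8 members. Il13 had 58.1 and 21.7 FPKM in MSC KO 1 and 2, against 1.43 and 2.06 FPKM in WT 1 and 2. Il4 had 23.9 and 8.47 FPKM in the MSC KO libraries, against 1.71 and 1.46 FPKM in WT. Il5 had 5.01 and 2.67 FPKM in the MSC KO libraries, against 0.674 and 0.359 FPKM in WT. In each gene MSC KO 1 was the highest library, MSC KO 2 came next, and both WT libraries were low. The difference was 3.75 ± 0.48 for Il13 (adjusted p = 0.13, limma), 2.57 ± 0.36 for Il4 (adjusted p = 0.14) and 1.64 ± 0.19 for Il5 (adjusted p = 0.123), so that none passed over all genes. By size of the difference Il13 ranked 24, Il4 ranked 62 and Il5 ranked 132 among 10587 genes, counted from the highest. Only 6 other genes had a larger difference than Il13 in both tables. In the authors' deposited table of each pair, which tests 1 library against 1, 0 of the 8 members were called, while the shares of tested genes called were 0.634% (MSC KO 1 and WT 1) and 0.549% (MSC KO 2 and WT 2). There, Il13 had a q of 0.0625 and 0.0764, Il4 of 0.23 and 0.563, and Il5 of 0.411 and 0.51.

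Counting error was smaller than these gaps in each of the 3 genes. With the longest coding transcript, Il5 corresponded to about 216 and 135 fragments in MSC KO and 26.4 and 19.3 in WT. Taken as a linear ratio of FPKM, Il5 was 7.44 times WT in both tables, with 95% intervals of 5.01 to 11.8 and 4.68 to 13.0 (exact Clopper-Pearson on the estimated fragments, counting error only). The ratio for Il4 was 13.96 in the first table (9.54 to 22.0) and 5.81 in the second (3.93 to 8.80). For Il13 it was 40.5 (30.1 to 56) and 10.5 (8.42 to 13.3). For Il4 and Il13 the intervals of the 2 tables did not overlap, whereas those of Il5 largely overlapped. Il5 was under 1 FPKM in both WT libraries and entered the test through its MSC KO level, so that its entry alone tied it to a difference.

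**Figure D1:**
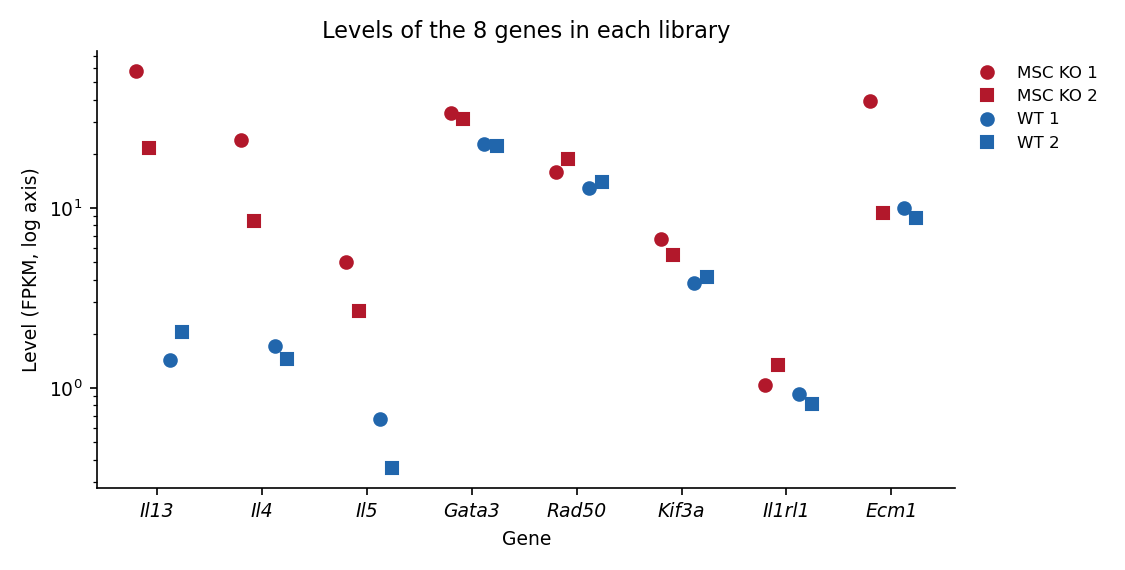
Level of each of the 8 genes in FPKM (log axis), with 1 point per library, red for MSC KO and blue for WT, circles for replicate 1 and squares for replicate 2. The red points of Il13, Il4 and Il5 stand clear of the blue ones (Il13 at 58.1 and 21.7 FPKM against 1.43 and 2.06 FPKM), and for Ecm1 only MSC KO 1 stands apart.

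The shares of Il13 and Il4 among the 3 cytokine transcripts were close in the MSC KO libraries although the sum was not. Summed FPKM was 87.0 in MSC KO 1 and 32.8 in MSC KO 2, against 3.82 in WT 1 and 3.87 in WT 2. Il13 made up 66.8% of the sum in MSC KO 1 and 66.0% in MSC KO 2, against 37.6% in WT 1 and 53.1% in WT 2. Il4 made up 27.5% and 25.8% in the MSC KO libraries, against 44.8% and 37.6% in WT. Il5 made up 5.76% and 8.15% in the MSC KO libraries, against 17.6% and 9.28% in WT. By these values Il13 was the most abundant of the 3 per length in both MSC KO libraries and in WT 2, and Il4 was in WT 1. The shares in WT 1 and WT 2 rest on few estimated fragments: 26.4 and 30.9 for Il4, 26.4 and 19.3 for Il5, and 44.1 and 86.8 for Il13. No counting interval was computed for the shares, so the order of Il13 and Il4 within WT is uncertain. The ratio of Il13 to Il4 was 2.43 and 2.56 in the MSC KO libraries, against 0.838 and 1.41 in WT. Between the MSC KO libraries, MSC KO 1 exceeded MSC KO 2 by 2.82 times for Il4, 2.68 times for Il13 and 1.88 times for Il5. In bulk RNA, more cells that make a cytokine and more transcript per cell cannot be told apart.

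Gata3 was higher in both MSC KO libraries, by a far smaller factor than the cytokine genes. It had 33.7 and 31.1 FPKM in the MSC KO libraries, against 22.7 and 22.1 FPKM in WT. Both MSC KO libraries were above both WT libraries, as in 26.6% of all tested genes. MSC KO was 1.48 times WT in the first table and 1.41 times in the second. The difference was 0.51 ± 0.09 (adjusted p = 0.153, limma), rank 776 of 10587, and the authors' deposited table gave a q of 0.999 in both pairs. Gata3 was steady between the MSC KO libraries, where MSC KO 1 was 1.08 times MSC KO 2, while Il4 and Il13 were 2.82 and 2.68 times. Its FPKM was 1.41 and 3.67 times that of Il4 in MSC KO 1 and 2, against 13.3 and 15.1 times in WT 1 and 2, where it was the highest of the 8 genes.

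Rad50 and Kif3a, which lie between and beside the cytokine genes, were slightly higher in MSC KO. In the tables' mm9 coordinates, Kif3a lies on chromosome 11 from 53380880 to 53417746, Il4 from 53425962 to 53432167, Il13 from 53444824 to 53448204, Rad50 from 53463020 to 53520821 and Il5 from 53534295 to 53538605. The whole block spans 158 kb, and the gaps between neighbours were 8.22, 12.7, 14.8 and 13.5 kb, so that no 2 of these spans overlapped. Rad50, a subunit of the MRE11 complex that binds broken DNA, had 15.8 and 18.7 FPKM in the MSC KO libraries, against 12.9 and 13.9 FPKM in WT. Kif3a, a motor subunit of kinesin-2, had 6.77 and 5.47 FPKM in the MSC KO libraries, against 3.84 and 4.14 FPKM in WT. In both genes the MSC KO libraries were above both WT libraries, as in 26.6% of all tested genes. In Rad50 the higher MSC KO library was MSC KO 2, the reverse of Il4, Il13 and Il5. The differences were 0.34 ± 0.09 for Rad50 and 0.51 ± 0.14 for Kif3a (adjusted p = 0.209 for each, limma). Both were far under those of the cytokine genes that flank them. Per length, Rad50 was below Il13 in MSC KO, at 0.272 and 0.861 times its FPKM, and above it in WT, at 8.96 and 6.76 times.

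Few partners of these members were higher in MSC KO. Of 12 genes of the MRE11 complex and the break response found in both tables, all tested, 8 were lower in MSC KO in both tables and 0 were higher in both, and the list's median was -0.15. The subunit gene Mre11a had 20.9 and 20.0 FPKM in MSC KO and 22.9 and 22.8 FPKM in WT, and Nbn had 11.99 and 13.3 FPKM in MSC KO and 15.2 and 14.7 FPKM in WT. Of 15 tested kinesin-2 and ciliary transport genes, 12 were lower in both tables and 1 was higher, with a median of -0.20. Kif3b, the usual motor partner of KIF3A, had 13.4 and 16.1 FPKM in MSC KO and 16.4 and 17.4 FPKM in WT. Over all 10587 tested genes 37.5% were lower in both tables, 31.2% were higher in both, and the median was -0.02. No gene of either list passed by limma.

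Beyond the block, 22 other genes with a symbol had their centre within 1 Mb of Il4, and 13 were tested. Of these 7 were higher in MSC KO in both tables and 4 were lower, the median over the 13 being 0.07. The largest shared difference was that of Il3, a growth factor gene for mast cells and basophils that lies 651 kb from Il4. Il3 had 22.9 and 74.2 FPKM in the MSC KO libraries, against 5.11 and 5.79 FPKM in WT (2.72 ± 0.42, adjusted p = 0.146, limma). Its neighbour Csf2, which encodes GM-CSF, had 2.54 and 37.0 FPKM in the MSC KO libraries, against 1.97 and 2.20 FPKM in WT. For Il3 and Csf2 the higher library was MSC KO 2, whereas for Il4, Il13 and Il5 it was MSC KO 1. P4ha2, a collagen prolyl hydroxylase gene between these clusters, had 14.7 and 15.9 FPKM in MSC KO and 7.81 and 7.64 FPKM in WT. Irf1, an interferon response factor next to Il5, lay the other way, with 47.8 and 60.1 FPKM in MSC KO and 76.6 and 79.1 FPKM in WT.

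**Figure D2:**
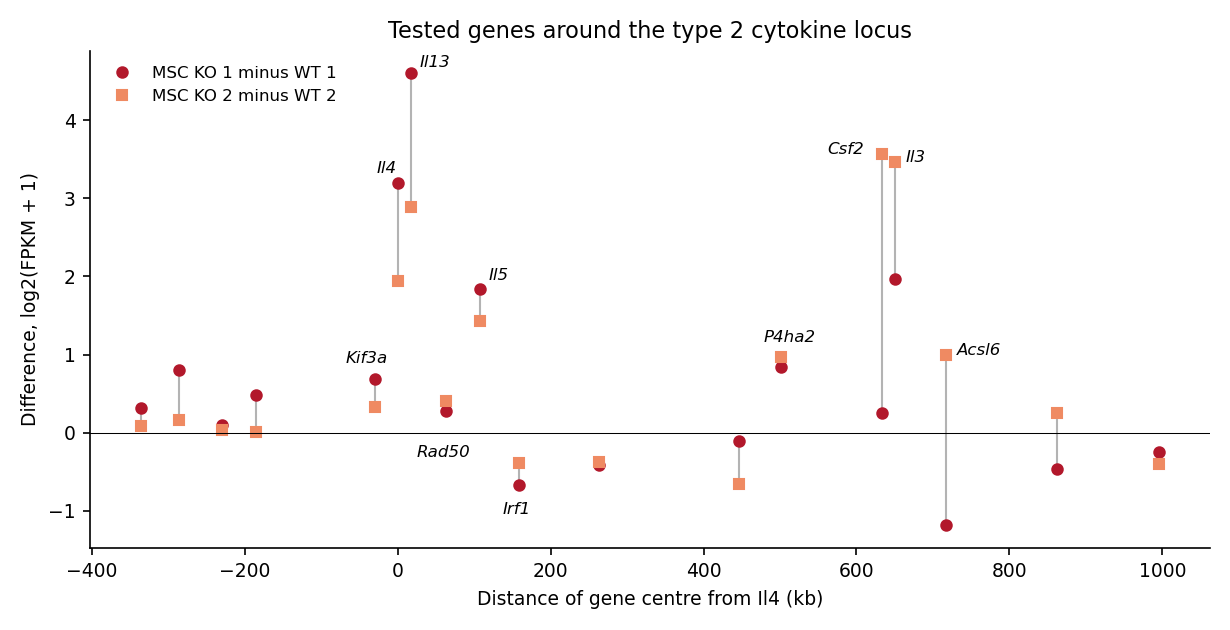
Difference in log2(FPKM + 1) for the 18 tested genes within 1 Mb of Il4 against the distance of the gene's centre from that of Il4 in kb, dark circles for MSC KO 1 minus WT 1 and light squares for MSC KO 2 minus WT 2. Il13 (4.60 and 2.89) and Il4 (3.20 and 1.95) stand above Rad50 and Kif3a in both tables, and in Il3 and Csf2 the second table is the higher one.

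Il1rl1, which encodes the interleukin-33 receptor chain ST2 of type 2 helper and tissue Treg cells, was low in all libraries. It lies on chromosome 1 (mm9, 40496493 to 40522259) and had 1.04 and 1.34 FPKM in the MSC KO libraries, against 0.926 and 0.811 FPKM in WT. Both MSC KO libraries were above both WT libraries, as in 26.6% of all tested genes. The gap between the lowest MSC KO and the highest WT library was small. The ratio was 1.12 in the first table, with a counting interval of 0.878 to 1.43, and 1.65 in the second, with 1.34 to 2.04. The difference of 0.23 ± 0.19 did not pass (adjusted p = 0.555, limma). Of 11 tested genes of the interleukin-33 pathway and related receptors, 5 were higher and 4 lower in both tables. Il1rap, the co-receptor, had 2.33 and 1.68 FPKM in MSC KO and 1.55 and 1.82 FPKM in WT, and the adaptor gene Myd88 had 30.4 and 27.2 FPKM in MSC KO and 25.4 and 25.7 FPKM in WT. Sigirr, an inhibitory receptor of the family, had 57.6 and 36.4 FPKM in MSC KO and 23.7 and 24.6 FPKM in WT (0.90 ± 0.21, adjusted p = 0.187). The interleukin-18 receptor genes of the same family lay the other way, with Il18r1 at 4.57 and 3.31 FPKM in MSC KO and 30.7 and 33.3 FPKM in WT. Il33 itself was at or under 0.0453 FPKM in every library.

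Ecm1 differed from the other members in that 1 MSC KO library alone was high. Ecm1, on chromosome 3 (mm9, 95538070 to 95543492), encodes a secreted protein that mouse type 2 helper cells use to leave lymph nodes. It reached 39.4 FPKM in MSC KO 1 but only 9.41 FPKM in MSC KO 2, and WT 1 and WT 2 had 10.04 and 8.80 FPKM. MSC KO 2 lay between the WT libraries, so the groups overlapped. The ratio was 3.93 in the first table (counting interval 3.55 to 4.34) and 1.07 in the second (0.952 to 1.201). In the authors' deposited table Ecm1 had a q of 0.0674 for the first pair and 0.999 for the second. The difference over both tables was 0.98 ± 0.50 (adjusted p = 0.366, limma). It was 0.0013 without MSC KO 1, and 1.96 without MSC KO 2 (adjusted p = 0.0104, limma). The fit without MSC KO 2 called 25.2% of all genes. The fits without MSC KO 1 and without MSC KO 2 had no block and assumed for the single MSC KO sample the spread of the WT pair. Among 8 tested egress, homing and interleukin-2 receptor genes, 3 were higher and 3 lower in both tables. S1pr1, the sphingosine phosphate receptor of lymphocyte egress, had 22.2 and 18.3 FPKM in MSC KO and 19.5 and 21.1 FPKM in WT.

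Set against all genes, the 8 members were higher in both tables in 8 cases, where 31.2% of 10587 genes were. Both MSC KO libraries exceeded both WT libraries in 7 of 8, Ecm1 being the exception, where 26.6% of genes did. At least 2-fold in both tables on the log2(FPKM + 1) scale were 3 of 8, the cytokine genes, where 1.32% of genes were. An unadjusted p under 0.05 was reached by 6 of 8, all higher in MSC KO, where 9.21% of genes had such a p and were higher. The median difference of the members was 1.26 (MSC KO 1) and 0.44 (MSC KO 2), and that of all genes was -0.0024 and -0.04. Il5 and Il1rl1, both under 1 FPKM in WT, are in these counts because their MSC KO level carried them past the filter. Their entry alone tied them to a higher MSC KO level, whereas Il4 and Il13 were above 1 FPKM in both WT libraries. The members were also chosen with earlier results of these data known, so these counts are descriptions and not a test.

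**Figure D3:**
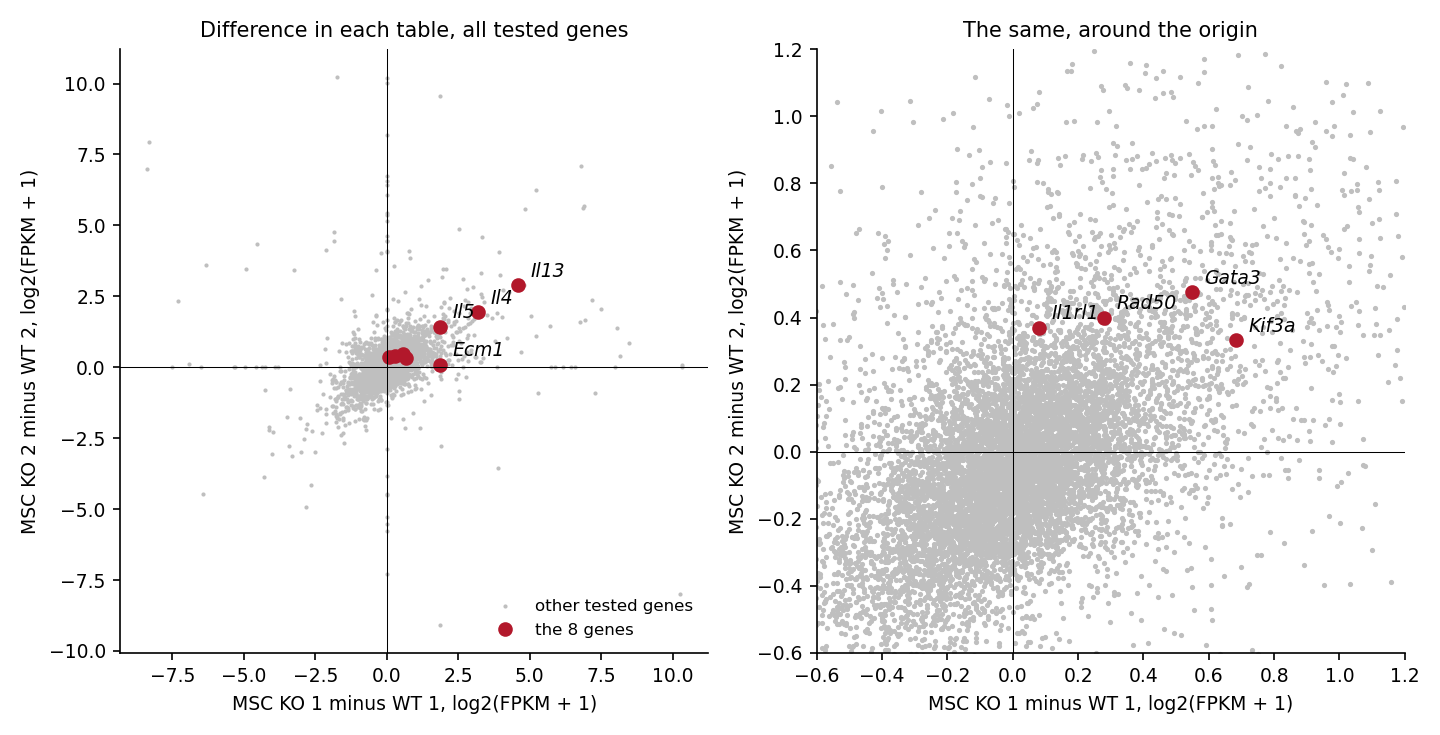
Difference in log2(FPKM + 1) in the first table (MSC KO 1 minus WT 1, x axis) against the second (MSC KO 2 minus WT 2, y axis) for all 10587 tested genes in grey and the 8 members in red, with the region around the origin enlarged on the right. Il13 (4.60 and 2.89) lies outermost of the members, and Ecm1 (1.87 and 0.09) sits close to the x axis.

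Among genes that act with GATA3, other cytokines and several activators were higher in MSC KO as well. Of 15 listed type 2 cytokines and effectors 9 were tested, and 8 were higher and 1 lower in both tables, with a median of 1.91. Il10, Il21 and Ccl22 were under 1 FPKM in both WT libraries and entered through their MSC KO level, which fixed their direction. Of the other 6, 5 were higher and 1 lower in both tables, with a median of 1.88. Il9, a mast cell growth factor gene, had 382 and 291 FPKM in the MSC KO libraries, against 73.8 and 72.1 FPKM in WT. Not all of these genes were high in both MSC KO libraries. Il24 had 176 and 28.4 FPKM in MSC KO and 16.2 and 22.4 FPKM in WT. The gene lower in both tables was Ccl1, a chemokine gene, with 2.60 and 0.0877 FPKM in MSC KO and 24.8 and 31.7 FPKM in WT. Areg, which encodes the repair factor amphiregulin, was at most 0.155 FPKM in any library, and Il25 and Tslp were listed at 0 in all. By limma 0 of these genes passed. In the authors' deposited tables, Il9 was called in both pairs (q = 0.0118 and 0.0143) and Il3 in the second (q = 0.0143). Il24 and Penk were called there in the first pair (q = 0.0118 for each), and the other tested genes of the list in neither.

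Of 28 genes listed as activators of the program and found in both tables, 24 were tested. Of these, 17 were higher and 4 lower in both, with a median of 0.39. The list also holds Mina, a repressor of Il4, at 24.13 and 14.85 FPKM in MSC KO and 11.89 and 11.21 FPKM in WT. The counts and the median are therefore not of activators alone. Batf, an AP-1 factor gene, had 188 and 81.0 FPKM in the MSC KO libraries, against 25.2 and 27.5 FPKM in WT. Satb1, a chromatin organizer that binds the cytokine locus in mouse, had 94.7 and 38.1 FPKM in the MSC KO libraries, against 11.1 and 11.6 FPKM in WT. In the authors' deposited tables, Satb1 was called in both pairs (q = 0.0118 and 0.0143), while Batf (q = 0.0118) and Crem (q = 0.0294) were called in the first and Irf4 in the second (q = 0.03). Myb, lower in MSC KO, was also called in both pairs in the authors' deposited tables (q = 0.0118 and 0.0143). Irf4, which works with BATF, had 166 and 160 FPKM in the MSC KO libraries, against 63.1 and 66.0 FPKM in WT. Maf, an activator of Il4, was well above WT in MSC KO 1 and close to it in MSC KO 2, with 8.30 and 1.82 FPKM in MSC KO and 1.73 and 1.501 FPKM in WT. Stat6, the transducer of IL-4 signals, had 54.7 and 59.8 FPKM in MSC KO and 54.6 and 58.0 FPKM in WT, a difference of 0.02 ± 0.09. Junb had 538 and 419 FPKM in MSC KO and 360.0 FPKM in each WT library. Myb, a proto-oncogene transcription factor, lay the other way at 4.77 and 8.31 FPKM in MSC KO and 39.9 and 40.7 FPKM in WT. No gene of this list passed by limma over all genes.

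Of 30 tested genes listed as restrainers of the program, 8 were higher and 16 lower in both tables, with a median of -0.12. Besides Foxp3, genes that were at least 2-fold lower in both tables were Klf2, a factor of quiescent T cells, with 4.76 and 5.24 FPKM in MSC KO and 56.7 and 53.0 FPKM in WT, and Eomes. The T-box gene Eomes, which entered the test through its WT level, had 0.322 and 0.585 FPKM in MSC KO and 4.81 and 5.16 FPKM in WT. Well known opponents of GATA3 had smaller differences, in either direction. Tbx21, which encodes T-bet, had 22.1 and 28.3 FPKM in MSC KO and 18.3 and 18.5 FPKM in WT (0.43 ± 0.13, adjusted p = 0.22, limma). Runx3, which silences Il4, had 46.6 and 47.1 FPKM in MSC KO and 42.5 and 42.7 FPKM in WT. Bcl6, not tested, had 0.798 and 0.331 FPKM in MSC KO and 0.857 and 0.641 FPKM in WT. Zfpm1, the GATA cofactor FOG1 that limits GATA3, had 23.9 and 21.3 FPKM in MSC KO and 28.6 and 28.3 FPKM in WT, and was named after its values were seen. Socs3 was the 1 gene of the list at least 2-fold higher in both tables, at 80.1 and 38.8 FPKM in MSC KO and 9.83 and 9.62 FPKM in WT. Although listed among the restrainers, Socs3 encodes an inhibitor of cytokine signals in general, not a specific restrainer of the type 2 program. The counts and the median of this list are therefore not of specific restrainers alone.

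**Figure D4:**
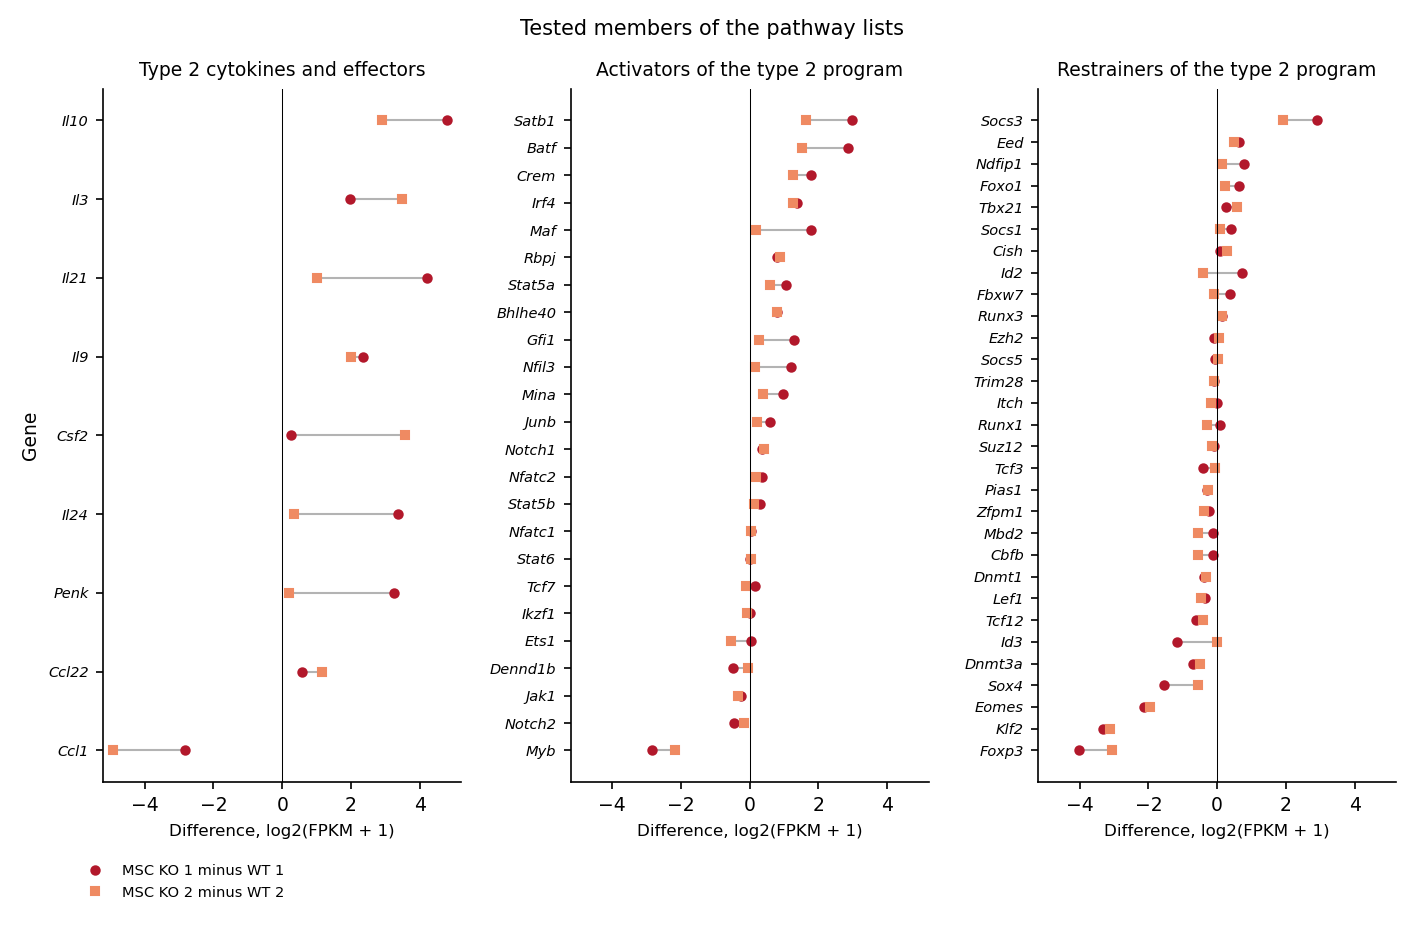
Difference in log2(FPKM + 1) of the tested genes in 3 lists (type 2 cytokines and effectors, activators, restrainers), dark circles for MSC KO 1 minus WT 1 and light squares for MSC KO 2 minus WT 2, genes ordered by their mean difference. Most genes of the cytokine and activator lists lie right of 0 (medians 1.91 and 0.39), Ccl1 and Myb lie far left, and the restrainer list spreads around a median of -0.12.

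Receptors of type 2 helper cells had smaller differences. Of 16 listed genes present in both tables, only 10 were tested, and 5 were higher and 2 lower in both, with a median of 0.21. Cysltr1, under 1 FPKM in both WT libraries, entered through its MSC KO level. Ccr4, a homing receptor gene, had 41.7 and 42.9 FPKM in the MSC KO libraries, against 19.9 and 21.8 FPKM in WT (0.99 ± 0.09, adjusted p = 0.118, limma). Il4ra, the interleukin-4 receptor chain, had 79.1 and 32.1 FPKM in MSC KO and 29.3 and 31.3 FPKM in WT, so that MSC KO 1 was far above WT and MSC KO 2 just above it. Gpr44, the prostaglandin receptor CRTH2 of type 2 cells, was at most 0.0379 FPKM, and Ccr3, the eotaxin receptor, at most 0.0352 FPKM.

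Other cells make type 2 cytokines too, and their markers were mostly low. Of 12 mast cell and basophil markers, Fcer1a, Ms4a2, Cpa3, Mcpt4, Tpsb2, Tpsab1, Cma1 and Prss34 were listed at 0 in every library, and Gata2 was at most 0.126 FPKM. Kit alone was tested, at 2.47 and 14.9 FPKM in MSC KO and 10.2 and 9.81 FPKM in WT. The list summed to 3.23 and 15.8 FPKM in MSC KO and 11.0 and 10.3 FPKM in WT. Kit was the largest part of it in every library, and Hdc, at 0.719 and 0.629 FPKM in MSC KO and 0.627 and 0.456 FPKM in WT, came next. The 4 eosinophil markers found summed to 0.412 and 0.497 FPKM in MSC KO and 0.924 and 1.08 FPKM in WT. Of 6 markers of group 2 innate lymphoid cells, Rora was tested, at 3.64 and 5.51 FPKM in MSC KO and 1.63 and 1.93 FPKM in WT. Calca, not tested, had 1.72 and 0.332 FPKM in MSC KO and 0.0488 and 0.107 FPKM in WT. For Rora and Calca both MSC KO libraries were above WT, as in 26.6% of all tested genes. Il17rb had 0.0799 and 0.374 FPKM in MSC KO and 0.282 and 0.269 FPKM in WT, and Arg1, Klrg1 and Nmur1 were at most 0.0693 FPKM. B cell markers summed to 6.53 and 5.50 FPKM in MSC KO and 7.40 and 6.98 FPKM in WT, most of it Cd79b, and myeloid markers to under 1 FPKM in every library. Of the CD8 genes, Cd8a had 0.571 and 0.658 FPKM in MSC KO and 1.58 and 1.90 FPKM in WT, while Cd8b1 had 8.56 and 19.1 FPKM in MSC KO and 9.75 FPKM in each WT library. The 6 T cell markers summed to 1360 and 1172 FPKM in MSC KO and 1197 and 1213 FPKM in WT. Of the Treg markers, Foxp3, Ikzf2, Lrrc32 and Itgae were lower in MSC KO in both tables, and Ctla4 was higher. The part of Rora, Calca, Kit and the Treg genes in the cytokine difference was not tested.

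The genes whose differences were most like those of a member were found by the distance between their 2 within-table differences, over 7450 genes of at least 5 FPKM. Nearest to Il13 were Il10, Rps6ka4 and Timp1, none of them called in the authors' deposited tables. Rps6ka4 had 413 and 120.5 FPKM in the MSC KO libraries, against 20.2 and 18.2 FPKM in WT. Its authors' q was nevertheless 0.999 in both pairs. Il10, an anti-inflammatory cytokine gene, had 39.6 and 10.1 FPKM in the MSC KO libraries, against 0.478 and 0.468 FPKM in WT, at a distance of 0.18. Nearest to Il4 were Tgm2, Il1rn and Socs3. The authors called Tgm2 and Socs3 in both pairs, and Il1rn in the first. Tgm2, which encodes a transglutaminase, had 157 and 52.4 FPKM in the MSC KO libraries, against 14.7 and 13.8 FPKM in WT. Nearest to Gata3, all within 0.0153, were Ifngr2, Arhgap12 and Wipf1. Ifngr2, an interferon gamma receptor chain, had 26.6 and 22.2 FPKM in the MSC KO libraries, against 17.9 and 15.8 FPKM in WT. The measure rests on 4 libraries.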

How the data were processed

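RNA-seq values of 4 libraries were taken from 2 gene-level tables. Reads were aligned to mm9 with TopHat, per the submitters' processing notes, and the program behind the tables is not given in the sources used here. From their Cuffdiff-like layout, the authors' expression values were taken to be FPKM. Each table also holds the authors' p-value and q-value per gene, from 1 library against 1. Rows with no symbol (1925 and 2325), symbols turned into dates (24 per table), 6 genes with a failed estimate and 3 with loci apart were left out, and the row with the highest mean was kept per symbol.

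Values were fitted as log2(FPKM + 1) with limma 3.58.1 in R 4.3.3 (trended prior, table as a block, two-sided, Benjamini-Hochberg over all genes tested), for genes with a mean of at least 1 FPKM. The block was used because each table may carry its own scaling, so levels set across tables are descriptions only. The residual had 1 degree of freedom. Depth and fragments used GENCODE M21 transcript lengths matched by gene name. Depth was estimated in genes with a single transcript over 2500 bp. Fragments of the members used the longest coding transcript, whatever its length. The chi-square between replicates used genes with a single transcript, a lower length limit and a minimum of estimated fragments. Promoter windows came from RefSeq (GRCm38.p6), and 7 of the 8 members had an entry. Tables were prepared with pandas 2.3.3 in Python 3.11.15.

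The members, lists and rules were chosen with earlier results of these data known. Named genes were the members, up to 4 genes per list ranked by the smaller of their 2 within-table differences, fixed key genes, and the 3 nearest genes to Il4, Il13 and Gata3. Further genes (Mre11a, Kif3b, Il1rap, Myd88, Il33, S1pr1, Il24, Il25, Tslp, Zfpm1, Gpr44, Ccr3 and the markers) were named for their role after their values were seen. Alternatives changed the pseudocount, filter, scaling, block, prior, small RNA genes and each library.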

Additional observations from a re-analysis of the deposited data

How the results depend on the processing

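No member changed direction under any of 12 alternatives, and of 96 member values 85 kept their side of the threshold while 11 newly passed. All 11 came from leaving out 1 MSC KO library, which also turns off the block and leaves the close pair of WT libraries to set the spread. Without MSC KO 1, Gata3, Il4, Il5, Il13 and Rad50 passed (adjusted p of 0.0173 to 0.0461, limma), in a fit that called 21.6% of all genes. Without MSC KO 2, Gata3, Il4, Il5, Il13, Kif3a and Ecm1 passed (0.00736 to 0.0292), in a fit that called 25.2%. Without WT 1 or WT 2 no member passed, with adjusted p from 0.494 to 0.879. Over the alternatives the difference ranged from 3.05 to 4.44 for Il13, 1.88 to 3.27 for Il4, 1.28 to 2.66 for Il5 (the highest with a pseudocount of 0.1), 0.46 to 0.57 for Gata3 and 0.0013 to 1.96 for Ecm1.

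The number of genes called over the whole table, 1 in the reported fit, was 0 without the filter, 7 after scaling all libraries to a common sum, 0 with quantile normalization, 0 with a prior without trend and 26 with small RNA symbols left out. It ranged from 0 (without WT 1) to 2665 (without MSC KO 2) when 1 library was left out, with 3 without WT 2 and 2286 without MSC KO 1. With no replicate block it was 153, and the members' adjusted p were 0.0595 for Il13, 0.0657 for Gata3, 0.0843 for Il5 and 0.0919 for Il4. The deviations of same-numbered libraries from their group means had a Pearson r of 0.06 across genes. The WT libraries differed too little from each other for this r to show whether the numbers mark pairs. Where 0 genes were called, 784 to 2669 had an unadjusted p under 0.05.

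An alternative chosen after the data were seen averaged WT 1 and WT 2 into 1 sample. Their fragments differed by a median chi-square of 1.13 over 539 genes, against 0.455 for sampling noise alone and 10.9 between MSC KO 1 and MSC KO 2. It called 0 genes, with 792 at an unadjusted p under 0.05, and gave Il13 3.74 ± 0.68 (adjusted p = 0.532) and Il4 2.57 ± 0.69 (0.637).

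Direction of the medians of the pathway lists was the same under both rescalings, and that of the T cell markers was not (0.03, -0.01 with the same sum). By estimated fragments in WT, depth limits Il5 (26.4 and 19.3) and Il4 (26.4 and 30.9) most among the members.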
